A study of Homo sapiens with 18 samples.

Results

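The genes described here are 10 regulators of the integrated stress response: ATF4, DDIT3, ATF3, ATF5, CEBPB, CEBPG, TRIB3, CHAC1, SESN2 and PPP1R15A. They were taken by symbol from a list drawn up with earlier results of these data known, no measured value entering the rule itself, and all 10 were among the 23686 gene symbols of the tables. Bulk RNA sequencing was performed on OCI-Ly1 and TMD8, human lines derived from diffuse large B-cell lymphoma. In each line, cells received the vehicle (0.01% DMSO) or JIB-04, an inhibitor of Jumonji-family histone demethylases, at 150 nM or 500 nM. Each of these groups had 3 libraries, 18 in all. OCI-Ly1 was kept in IMDM and TMD8 in RPMI 1640, both with serum and antibiotics, so that line and medium cannot be told apart in any comparison between lines. The labels give no treatment time, and they call the libraries technical triplicates. Whether the cultures were separate is not said, so p-values measure only the spread between these libraries, which may be technical.

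In the integrated stress response, kinases that sense amino acid shortage, unfolded protein, double-stranded RNA or haem shortage and mitochondrial stress phosphorylate the translation factor eIF2. Most protein synthesis then slows, while the mRNA of ATF4, a transcription factor of the basic leucine zipper (bZIP) class, is translated more. ATF4 pairs with other bZIP factors such as C/EBP proteins, and its targets include further transcription factors (DDIT3, also called CHOP, ATF3 and CEBPB), effectors (CHAC1, SESN2) and feedback inhibitors (TRIB3, PPP1R15A). ATF4, ATF5, DDIT3 and PPP1R15A are also controlled at translation through upstream reading frames, which RNA levels do not show.

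Estimated counts summed to between 17579732 and 32651115 in a library of OCI-Ly1, against 9550092 to 20509500 for TMD8. The 10 genes together took 0.0769% to 0.221% of the counts of an OCI-Ly1 library and 0.125% to 0.398% of those of a TMD8 library. All 10 passed the filter on low counts in both lines. The 6 B-cell markers had median TPM (transcript abundance scaled to length and to a fixed total per library) of 37.1 to 410 in OCI-Ly1 and 31.9 to 221 in TMD8, and the 3 myeloid markers stayed under 1 TPM in every library. Among germinal centre B-cell markers, MME and BCL6 were high in OCI-Ly1 (medians 81.5 and 81.4 TPM), whereas LMO2 and SERPINA9 were near 0 there (0.097 and 0.116 TPM) and higher in TMD8 (16.7 and 4.88 TPM). Of 5 activated B-cell markers, TMD8 had the higher median in IRF4 (254 against 58.1 TPM), BATF (91.1 against 6.11), PIM2 (119 against 60.7) and CCND2 (73.1 against 0.033), and OCI-Ly1 in FOXP1 (41.0 against 30.0). CD3D and CD3G, T-cell genes, had medians of 8.55 and 11.8 TPM in OCI-Ly1, and CD3E of 0.405 TPM; their part in the results was not tested.

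JIB-04 raised these genes in both lines. At 500 nM all 10 were higher than with DMSO in OCI-Ly1, where 27.7% of the 15638 genes tested were called higher, and all 10 were higher in TMD8, where 29.9% of 15363 were. The threshold was an adjusted p of 0.05 in edgeR's quasi-likelihood test, adjusted by Benjamini-Hochberg over all genes tested. The median log2 fold change over the 10 genes was 3.09 in OCI-Ly1 and 1.59 in TMD8, beside medians over all genes tested of -0.0033 and 0.041. At 150 nM, 8 of the 10 were called higher in OCI-Ly1, where 0.748% of all genes were, and all 10 in TMD8, where 19.2% of all genes were. Their median log2 fold change at this dose was 0.63 in OCI-Ly1 and 0.99 in TMD8. From 150 to 500 nM all 10 rose again in OCI-Ly1 (25.1% of all genes called higher), and 9 of 10 in TMD8 (13.7%). On log2(TPM + 1) and log2(TPM + 0.1) 6 genes were called between the doses in TMD8, and ATF4, ATF3 and ATF5 missed the threshold (limma adjusted p = 0.271, 0.163 and 0.0726 on the first). Over all genes tested, 464 and 422 were called higher on these scales, and 3980 and 4146 lower. None of the 10 was called lower in any of these comparisons. Over all genes, the shares called lower in OCI-Ly1 were 0.141% at 150 nM, 25.9% at 500 nM and 21.1% between the doses. The same shares in TMD8 were 25.0%, 30.7% and 15.0%. In bulk RNA, a change in every cell and a change in the share of cells that hold the transcript cannot be told apart.

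**Figure D1:**
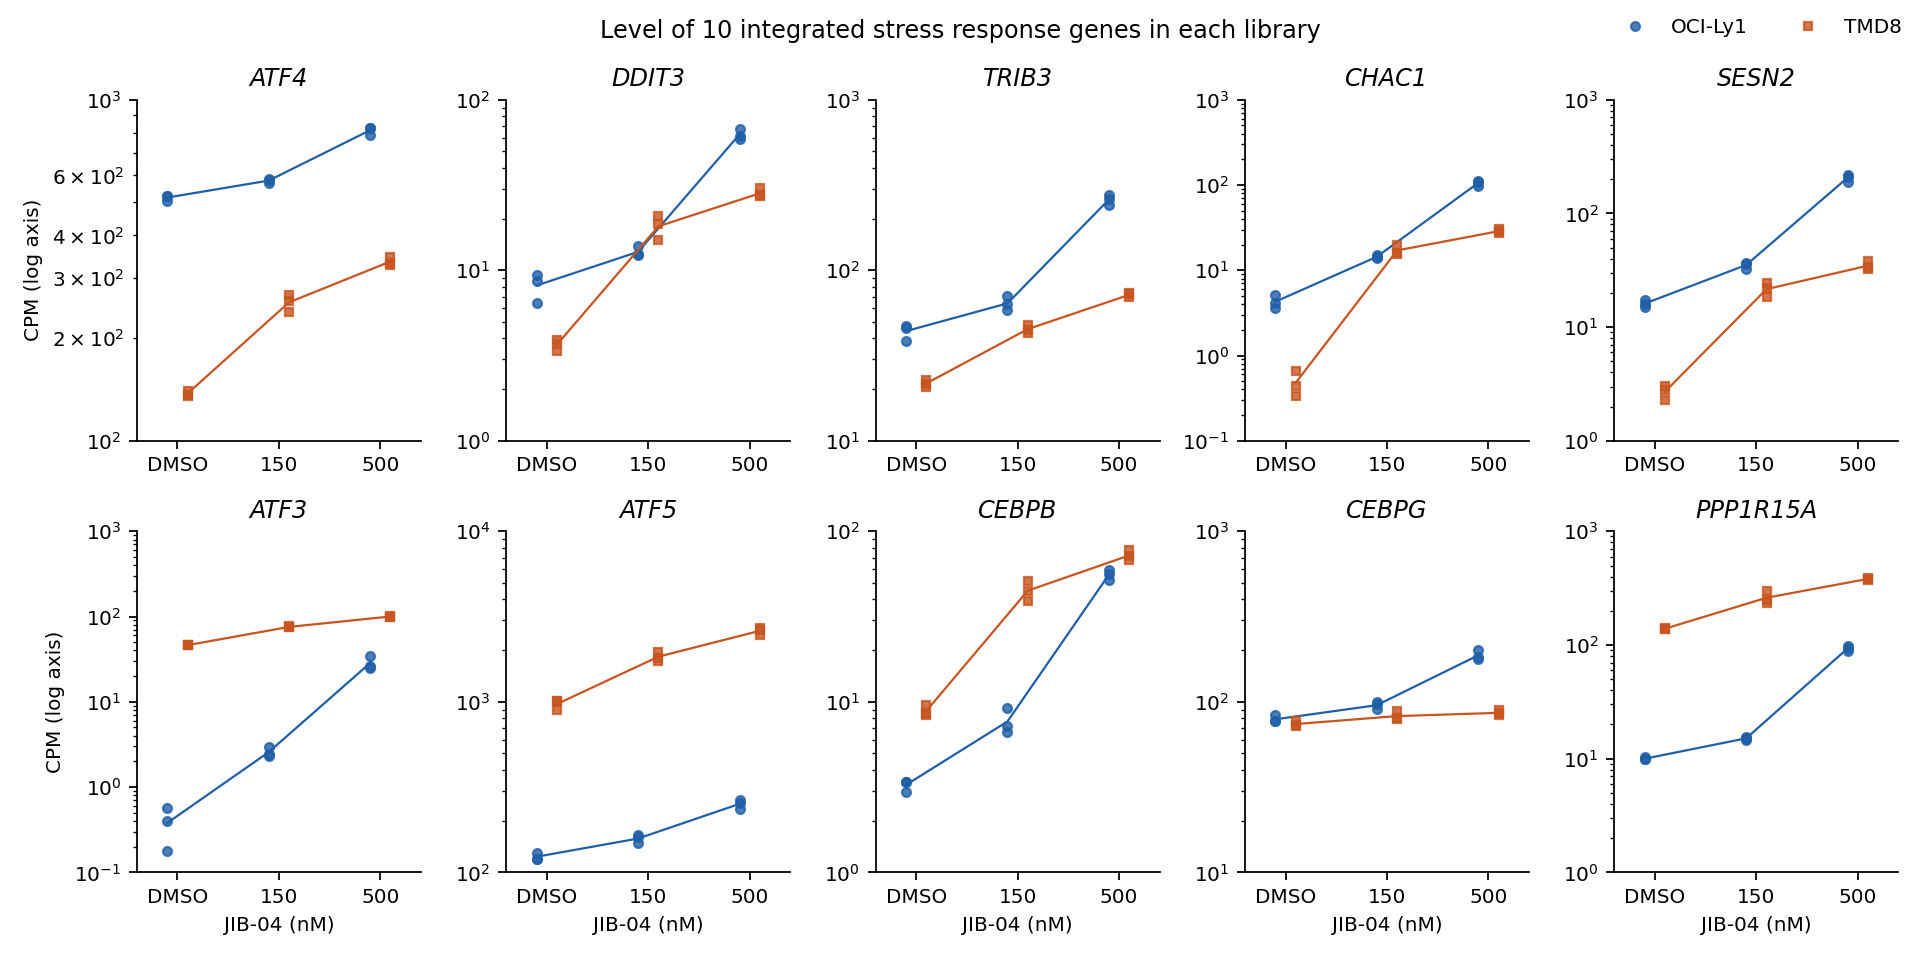
CPM (counts scaled to library size, log axis) of each gene in each library against treatment (DMSO, 150 nM or 500 nM JIB-04). Points are single libraries, circles OCI-Ly1 and squares TMD8, and lines join the means of 3 libraries; every gene climbed in both lines, with the OCI-Ly1 line steepest between the 2 doses and CEBPG nearly flat in TMD8.

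ATF4, the hub of the response, had the smallest rise of the 10 genes in OCI-Ly1. Levels are given as CPM, counts divided by the effective library size, which was set within each line, so that levels set across the lines here are approximate and the tested values follow below. Its 3 libraries stood at 523, 522 and 505 CPM with DMSO, at 582, 569 and 586 CPM with 150 nM, and at 828, 826 and 788 CPM with 500 nM. The 3 groups did not overlap, but the first step was small, a log2 fold change of 0.17 ± 0.04 (SE) that missed the threshold (edgeR adjusted p = 0.081). At 500 nM the log2 fold change from DMSO was 0.66 ± 0.04 (edgeR adjusted p = 5.12e-10). TMD8 started lower and rose more: 140, 136 and 137 CPM with DMSO, 239, 257 and 268 CPM with 150 nM, and 327, 333 and 347 CPM with 500 nM. No libraries of different groups overlapped there either. The TMD8 log2 fold changes were 0.89 ± 0.05 at 150 nM (edgeR adjusted p = 9.66e-10) and 1.29 ± 0.05 at 500 nM (edgeR adjusted p = 1.09e-12). Even at 500 nM, TMD8 stayed below the level of OCI-Ly1 with DMSO.

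DDIT3 encodes CHOP, a bZIP factor known for promoting cell death under prolonged stress. In OCI-Ly1 it read 8.68, 9.33 and 6.42 CPM with DMSO, 12.4, 13.8 and 12.3 CPM with 150 nM, and 67.8, 61.2 and 58.9 CPM with 500 nM. Most of that rise lay above 150 nM: the log2 fold change from DMSO was 0.67 ± 0.12 at 150 nM (edgeR adjusted p = 0.0059) and 2.96 ± 0.11 at 500 nM (edgeR adjusted p = 1.85e-13). The 150 nM call was lost without replicate 2 of that dose (edgeR adjusted p = 0.0534). In TMD8 the libraries read 3.36, 3.70 and 3.92 CPM with DMSO, 14.9, 18.6 and 20.7 CPM with 150 nM, and 30.2, 27.1 and 27.5 CPM with 500 nM. Here most of the rise was in place at the lower dose, with log2 fold changes of 2.31 ± 0.13 (edgeR adjusted p = 7.85e-10) and 2.94 ± 0.12 (edgeR adjusted p = 2.40e-12). DDIT3 shares exon sequence on opposite strands with MARS and MBD6 (GENCODE v29), and the strand of counting is not given in the sources used here, so its level is uncertain by that overlap. At 500 nM MARS changed by a log2 value of 0.92 in OCI-Ly1 and 0.58 in TMD8, and MBD6 by 1.04 and 1.12; their part in the DDIT3 values was not tested.

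ATF3, a bZIP factor of immediate stress responses, had the widest gap in DMSO level between the lines of the 10 genes. OCI-Ly1 had almost none with DMSO: 0.397, 0.176 and 0.565 CPM, from 10, 3 and 14 estimated counts. With 150 nM the libraries read 2.99, 2.44 and 2.29 CPM, and with 500 nM 34.2, 26.3 and 25.0 CPM. Each group lay clear of the one before, and the log2 fold change was 2.67 ± 0.29 at 150 nM (edgeR adjusted p = 3.35e-05) and 6.13 ± 0.22 at 500 nM (edgeR adjusted p = 1.50e-13), both resting on few counts in the DMSO libraries. TMD8 held ATF3 at 46.8, 46.0 and 45.8 CPM with DMSO, 74.7, 75.5 and 76.5 CPM with 150 nM, and 98.5, 99.6 and 102.6 CPM with 500 nM. Its lowest DMSO library in TMD8 was above the highest OCI-Ly1 library at 500 nM. The rise in TMD8 was smaller, at log2 fold changes of 0.71 ± 0.05 (edgeR adjusted p = 5.91e-09) and 1.12 ± 0.05 (edgeR adjusted p = 2.40e-12).

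ATF5 and CEBPB, bZIP factors that act with or downstream of ATF4, rose in both lines from very different levels. ATF5 ran from 120.0 to 130.0 CPM with DMSO, 148 to 165 CPM with 150 nM and 235 to 267 CPM with 500 nM in OCI-Ly1. TMD8 had several times more, 892 to 1011 CPM with DMSO, 1741 to 1963 CPM with 150 nM and 2467 to 2726 CPM with 500 nM. Its log2 fold change at 500 nM was 1.03 ± 0.06 in OCI-Ly1 (edgeR adjusted p = 1.54e-10) and 1.43 ± 0.06 in TMD8 (edgeR adjusted p = 4.83e-12). ATF5 shares exon sequence on opposite strands with NUP62 and IL4I1 (GENCODE v29), which makes its level uncertain in the same way. It also shares exon sequence on the same strand with MIR4751, which is among the gene symbols counted. NUP62 stood higher in TMD8 with DMSO (757 against 136 CPM), but fell by 0.71 in OCI-Ly1 and fell by 1.30 in TMD8 on the log2 scale at 500 nM, where ATF5 rose. IL4I1 also stood higher in TMD8 with DMSO (35.3 against 1.28 CPM), with log2 fold changes of -0.36 and -0.03 at 500 nM that did not pass the test. The part of NUP62, IL4I1 and MIR4751 in the ATF5 values was not tested. CEBPB was rare with DMSO, 2.97 to 3.40 CPM in OCI-Ly1 and 8.32 to 9.53 CPM in TMD8. At 500 nM it reached 51.7 to 58.9 CPM in OCI-Ly1 and 67.9 to 77.4 CPM in TMD8, log2 fold changes of 4.10 ± 0.12 (edgeR adjusted p = 8.90e-15) and 3.02 ± 0.10 (edgeR adjusted p = 1.76e-13). The 150 nM libraries lay between, at 6.65 to 9.16 CPM in OCI-Ly1 and 39.0 to 51.1 CPM in TMD8.

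CEBPG, a C/EBP protein that lacks an activation domain and pairs with ATF4, rose in OCI-Ly1 and barely moved in TMD8. With DMSO the lines stood close together: 76.7, 76.7 and 83.5 CPM in OCI-Ly1, and 76.7, 72.6 and 73.0 CPM in TMD8, each scaled within its line. At 500 nM OCI-Ly1 libraries read 202, 183 and 177 CPM, a log2 fold change of 1.25 ± 0.06 (edgeR adjusted p = 2.19e-11). Its 150 nM libraries, at 90.4, 99.4 and 97.0 CPM, lay above the DMSO libraries but missed the threshold (log2 fold change 0.27 ± 0.06, edgeR adjusted p = 0.0529). Without DMSO replicate 3 or 150 nM replicate 1 they passed it (edgeR adjusted p = 0.0300 and 0.0138). In TMD8 the values were 88.2, 80.3 and 78.9 CPM at 150 nM and 85.7, 89.5 and 83.4 CPM at 500 nM. These doses overlapped (edgeR adjusted p = 0.398 between them), and the log2 fold changes from DMSO were only 0.15 ± 0.05 (edgeR adjusted p = 0.0262) and 0.22 ± 0.05 (edgeR adjusted p = 0.00178). Neither of these 2 small rises was held on the TPM scale, where the value at 500 nM was -0.15 on log2(TPM + 1) beside a median of -0.22 over all genes. The 150 nM call in TMD8 was also lost when DMSO replicate 2, DMSO replicate 3 or 150 nM replicate 1 was left out (edgeR adjusted p = 0.0913, 0.0820 and 0.139).

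Among the effectors, CHAC1 and SESN2 had the steepest changes in TMD8. CHAC1 degrades glutathione. In TMD8 it was close to absent with DMSO (0.444, 0.336 and 0.654 CPM, from 7, 6 and 13 estimated counts) and rose to 15.4, 16.1 and 19.8 CPM with 150 nM and to 28.6, 27.5 and 30.1 CPM with 500 nM. OCI-Ly1 expressed some CHAC1 with DMSO (5.11, 4.11 and 3.63 CPM), more with 150 nM (15.1, 14.3 and 13.8 CPM) and 112, 108 and 97.9 CPM with 500 nM. TMD8 started lower, and the order of the lines at 150 nM depended on the scaling. On CPM scaled over all 18 libraries OCI-Ly1 had 13.9 ± 0.688 (SD, n = 3) and TMD8 17.8 ± 2.31. In TPM OCI-Ly1 had 13.0 ± 0.340 and TMD8 7.57 ± 1.20. The log2 fold changes were 1.74 ± 0.11 (edgeR adjusted p = 6.65e-08) and 4.62 ± 0.10 (edgeR adjusted p = 5.34e-16) in OCI-Ly1, and 5.13 ± 0.19 (edgeR adjusted p = 1.38e-11) and 5.86 ± 0.17 (edgeR adjusted p = 1.01e-13) in TMD8.

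SESN2, a leucine-binding protein that restrains the growth kinase complex mTORC1 and is also a target of p53, followed the same course. It read 17.2, 16.0 and 15.1 CPM with DMSO, 36.6, 36.2 and 32.8 CPM with 150 nM, and 219, 211 and 190.3 CPM with 500 nM in OCI-Ly1. In TMD8 the values were 2.29, 3.03 and 2.82 CPM, then 18.6, 21.9 and 24.3 CPM, then 38.0, 33.8 and 32.3 CPM. Groups did not overlap within a line. At 500 nM the 2 log2 fold changes on counts were close, 3.68 ± 0.08 in OCI-Ly1 (edgeR adjusted p = 5.34e-16) and 3.67 ± 0.13 in TMD8 (edgeR adjusted p = 3.18e-13). The rise in OCI-Ly1 was larger by 1.55 on log2(TPM + 1) and by 0.70 on log2(TPM + 0.1), beside medians of 0.38 and 0.50 over all genes. With DMSO, TMD8 had only 0.551 ± 0.0418 TPM of SESN2 (SD, n = 3), near the pseudocount. On counts at 500 nM the line difference did not pass the test, as given below. At 150 nM the log2 fold changes on counts were 1.13 ± 0.08 in OCI-Ly1 (edgeR adjusted p = 1.11e-07) and 2.99 ± 0.13 in TMD8 (edgeR adjusted p = 9.93e-11).

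The feedback genes were TRIB3, a pseudokinase that binds ATF4 and CHOP, and PPP1R15A, also called GADD34, which directs protein phosphatase 1 to dephosphorylate eIF2. TRIB3 ran from 38.7 to 47.3 CPM with DMSO, 58.5 to 70.2 CPM with 150 nM and 243 to 275 CPM with 500 nM in OCI-Ly1. In TMD8 it ran from 20.7 to 22.7, from 42.9 to 47.8 and from 69.7 to 73.3 CPM in the same order. Its log2 fold change at 500 nM was 2.56 ± 0.08 in OCI-Ly1 (edgeR adjusted p = 3.79e-14) and 1.73 ± 0.06 in TMD8 (edgeR adjusted p = 5.39e-13). PPP1R15A read 9.87, 10.3 and 9.85 CPM with DMSO, 15.3, 14.5 and 15.4 CPM with 150 nM and 98.3, 93.2 and 88.6 CPM with 500 nM in OCI-Ly1. TMD8 began at 137, 138 and 142 CPM, above every OCI-Ly1 library, and reached 232, 251 and 298 CPM with 150 nM and 373, 384 and 388 CPM with 500 nM. The 500 nM log2 fold change was 3.23 ± 0.07 in OCI-Ly1 (edgeR adjusted p = 6.52e-16) and 1.46 ± 0.07 in TMD8 (edgeR adjusted p = 8.19e-12).

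**Figure D2:**
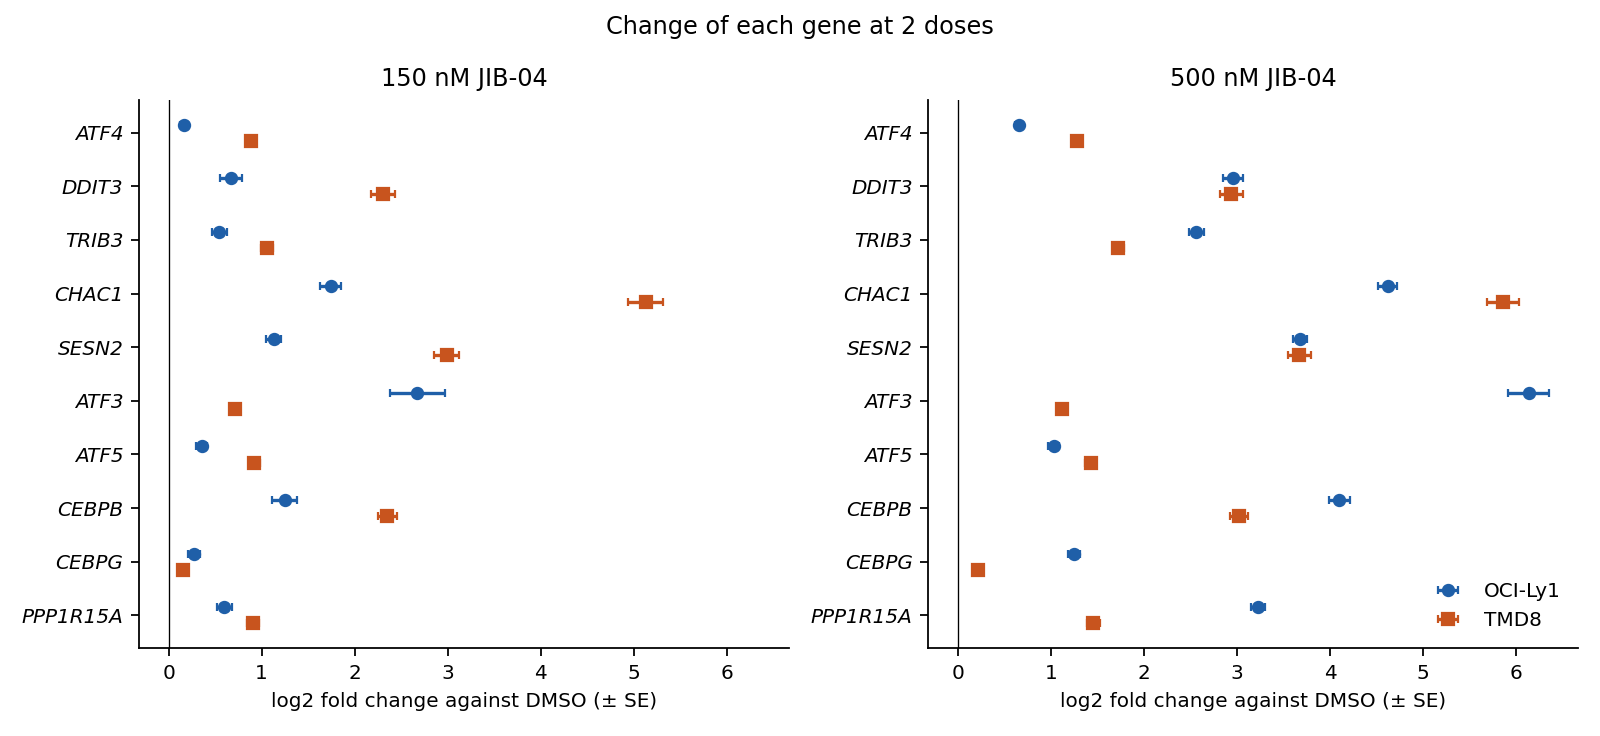
Log2 fold change against DMSO (x axis, edgeR estimate ± SE) of each gene at 150 nM (left) and 500 nM (right), circles OCI-Ly1 and squares TMD8. At 150 nM TMD8 lies to the right for all but ATF3 and CEBPG; at 500 nM OCI-Ly1 lies well to the right for ATF3 (6.13 against 1.12), PPP1R15A (3.23 against 1.46), CEBPB, CEBPG and TRIB3.

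Where along the dose range the genes rose differed between the lines. In OCI-Ly1 none of the 10 genes had its larger log2 step between DMSO and 150 nM: by that dose they had covered 18.5% (PPP1R15A) to 43.6% (ATF3) of their log2 rise to 500 nM, with a median of 27.8%. In TMD8 all 10 had the larger step first, and had covered 61.4% (TRIB3) to 87.5% (CHAC1), with a median of 69.4%. The difference between both steps was tested gene by gene, a comparison chosen after the values were seen. The first step was smaller than the second for 8 of 10 genes in OCI-Ly1, where 7.32% of all genes tested were called in that direction and 7.10% in the other; ATF3 (edgeR adjusted p = 0.265) and ATF5 (edgeR adjusted p = 0.0507) missed the threshold. In TMD8 it was larger than the second for 7 of 10, where 1.93% of all genes were and 0.866% were called the other way; TRIB3, PPP1R15A and CEBPG missed it (edgeR adjusted p = 0.0538, 0.116 and 0.696). CHAC1 in TMD8 had the widest gap, 5.13 then 0.73 on the log2 scale. The TMD8 count fell to 4 on log2(TPM + 1) and was 5 to 8 with a library left out. ATF3 lost its call without any 1 of 8 of the 9 TMD8 libraries, all but DMSO replicate 1 (edgeR adjusted p = 0.0659 to 0.197), and ATF5 without DMSO replicate 2, 150 nM replicate 2 or 3, or any 500 nM library (edgeR adjusted p = 0.0516 to 0.154). TRIB3 passed without DMSO replicate 1 or 150 nM replicate 1 (edgeR adjusted p = 0.0222 and 0.0379), as did PPP1R15A without the latter (edgeR adjusted p = 0.0136). In OCI-Ly1, ATF4 lost the call without 150 nM replicate 2 (edgeR adjusted p = 0.0533), and ATF5 passed without 150 nM replicate 1 or 500 nM replicate 3 (edgeR adjusted p = 0.0310 and 0.0335).

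**Figure D3:**
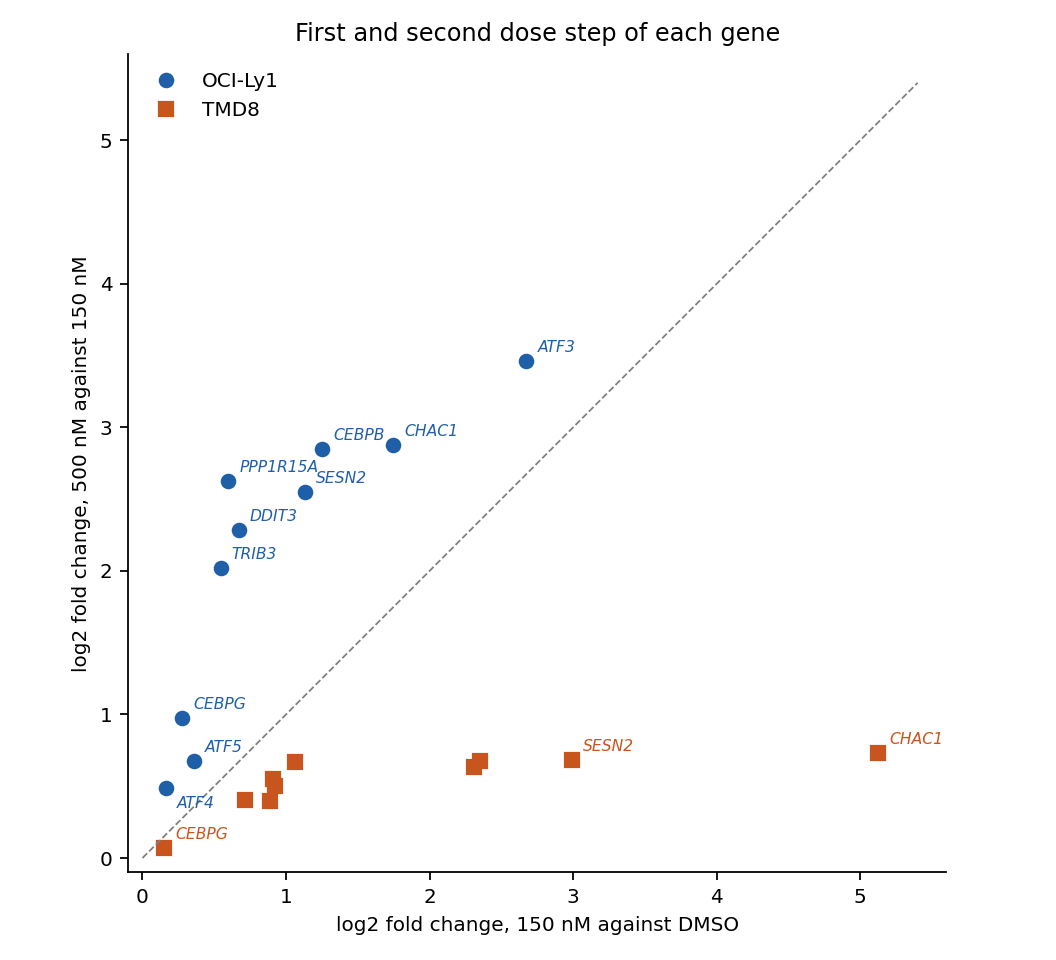
Log2 fold change from 150 to 500 nM (y axis) against that from DMSO to 150 nM (x axis) for each gene, circles OCI-Ly1 and squares TMD8, with equal steps on the dashed line. All 10 OCI-Ly1 points lie above that line and all 10 TMD8 points below it, although CEBPG in TMD8 lies close to it.

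The change itself was then compared between the lines, as the OCI-Ly1 log2 fold change minus that of TMD8. On counts at 150 nM it was smaller in OCI-Ly1 for 8 of the 10 genes (8.33% of the 16604 genes tested were called in that direction) and larger only for ATF3, by 1.97 ± 0.31 (edgeR adjusted p = 4.58e-05; 15.0% of all genes). The widest gaps were those of CHAC1, -3.38 ± 0.26 (edgeR adjusted p = 3.81e-09), SESN2, -1.86 ± 0.16 (edgeR adjusted p = 4.32e-08), and DDIT3, -1.63 ± 0.19 (edgeR adjusted p = 1.53e-06). For PPP1R15A, -0.30 ± 0.11, the call was near the threshold (edgeR adjusted p = 0.0474); leaving out any 1 of 10 of the 12 libraries compared ended it, the exceptions being TMD8 150 nM replicates 1 and 2 (edgeR adjusted p = 0.0552 to 0.142), as did DESeq2 (adjusted p = 0.0597). On log2(TPM + 1) and log2(TPM + 0.1) the difference was smaller for 6 genes, and TRIB3 (limma adjusted p = 0.133 and 0.0797) and PPP1R15A (limma adjusted p = 0.308 and 0.523) missed the threshold. Over all genes tested, 595 and 586 were called smaller on these scales, and 3432 and 3375 larger. CHAC1 and SESN2 kept their direction there, at -1.23 and -0.63 on log2(TPM + 1).

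At 500 nM the picture changed gene by gene. The rise was larger in OCI-Ly1 for 5 genes, led by ATF3, 5.04 ± 0.22 (edgeR adjusted p = 2.03e-15), and PPP1R15A, 1.80 ± 0.10 (edgeR adjusted p = 1.49e-13); the others were CEBPB (1.11), CEBPG (1.06) and TRIB3 (0.87), and 28.2% of all genes were called in that direction. It was smaller for ATF4, -0.60 ± 0.07 (edgeR adjusted p = 1.32e-07), for CHAC1 and for ATF5 (18.1% of all genes). DDIT3 and SESN2 did not pass the test, with differences of 0.04 ± 0.19 (edgeR adjusted p = 0.880) and 0.04 ± 0.18 (edgeR adjusted p = 0.899). These results depended on the scale. SESN2 was larger in OCI-Ly1 by 1.55 on log2(TPM + 1), by 0.70 with the pseudocount of 0.1 and by 1.10 after centring (limma adjusted p = 1.38e-08, 0.000189 and 2.33e-06). DDIT3 was larger by 0.77 and 0.54 on the first pair of these scales (limma adjusted p = 0.000308 and 0.00843), and did not pass on the centred one. ATF4 was -0.04 on log2(TPM + 1) (limma adjusted p = 0.759), and was still called smaller after centring. CHAC1 was -1.22 ± 0.29 on counts but 1.18 on log2(TPM + 1) and -0.31 on log2(TPM + 0.1), and ATF5 was -0.37 ± 0.09 but 0.10. On log2(TPM + 1) 8 genes were called larger in OCI-Ly1 and none smaller; on log2(TPM + 0.1) the split was 7 to 0, and 7 to 2 on centred log2(TPM + 1). The median over all genes of this line difference was 0.38 on log2(TPM + 1), 0.50 on log2(TPM + 0.1) and -0.07 after centring, beside 0.05 on counts. Values on the 2 uncentred scales thus include a shift shared by many genes, and DDIT3 at 0.54 lay near that median. A pseudocount of 1 TPM understates the rise of a gene that starts near 0, as CHAC1 and SESN2 do in TMD8 and ATF3 does in OCI-Ly1.

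With DMSO alone the lines already differed in 9 of the 10 genes, on CPM scaled over all 18 libraries. OCI-Ly1 was higher in ATF4 (497 ± 11.5 CPM, SD, n = 3, against 144 ± 3.75), DDIT3, TRIB3, CHAC1 (4.12 ± 0.748 against 0.501 ± 0.167) and SESN2 (15.5 ± 1.12 against 2.84 ± 0.381), where 37.8% of all genes tested were called higher. It was lower in ATF3 (0.365 ± 0.187 against 48.4 ± 0.926), PPP1R15A (9.62 ± 0.215 against 145.6 ± 1.67), ATF5 (119 ± 5.18 against 1015 ± 62.8) and CEBPB (3.13 ± 0.222 against 9.25 ± 0.610), where 39.0% were called lower. The extreme log2 differences were -6.94 ± 0.17 for ATF3 (edgeR adjusted p = 1.30e-23) and 3.01 ± 0.24 for CHAC1 (edgeR adjusted p = 6.58e-12). CEBPG differed by -0.03 ± 0.06 (edgeR adjusted p = 0.692), but by 0.12 on library size alone and by 0.90 on log2(TPM + 1), where the median over all genes was 0.61.

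Levels of different genes can be set beside each other only per transcript length, as TPM. With DMSO, OCI-Ly1 was led by ATF4 (497 ± 3.50 TPM, SD, n = 3) and ATF5 (79.3 ± 2.49), followed by CEBPG (27.4 ± 1.96), TRIB3 (23.7 ± 2.0), DDIT3 (11.4 ± 2.07), SESN2 (5.92 ± 0.331), PPP1R15A (5.57 ± 0.0925), CHAC1 (3.79 ± 0.628), CEBPB (2.07 ± 0.174) and ATF3 (0.260 ± 0.148). No neighbours in this order overlapped in their libraries. In TMD8 the first place was that of ATF5 (346 ± 5.21 TPM), ahead of ATF4 (71.4 ± 8.06) and PPP1R15A (43.1 ± 3.17). ATF3 (16.4 ± 1.63) and CEBPG (14.3 ± 1.72) came next and overlapped, and CHAC1 (0.237 ± 0.0749) was last. At 500 nM the order in OCI-Ly1 still began with ATF4 (865 ± 25.2 TPM) and ATF5 (179 ± 12.5), but TRIB3 (154 ± 6.70), DDIT3 (109 ± 4.76), CHAC1 (103 ± 5.35) and SESN2 (83.6 ± 4.61) had passed CEBPG (71.1 ± 2.77), with DDIT3 and CHAC1 overlapping. TMD8 kept ATF5 (726 ± 81.5), ATF4 (128 ± 11.2) and PPP1R15A (91.3 ± 7.49) on top, and SESN2 (5.45 ± 0.122) became the lowest. A single short RNA, MIR3687, took 15.2% to 24.3% of the TPM of TMD8 libraries, and RPPH1 took 6.33% to 10.6% of those of OCI-Ly1. The RPPH1 share was 9.70% to 10.6% at 500 nM and at most 7.63% in the other OCI-Ly1 libraries, and that of MIR3687 was 19.1% to 24.3% at 500 nM and at most 20.6% in the others; their part in the TPM values was not tested.

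**Figure D4:**
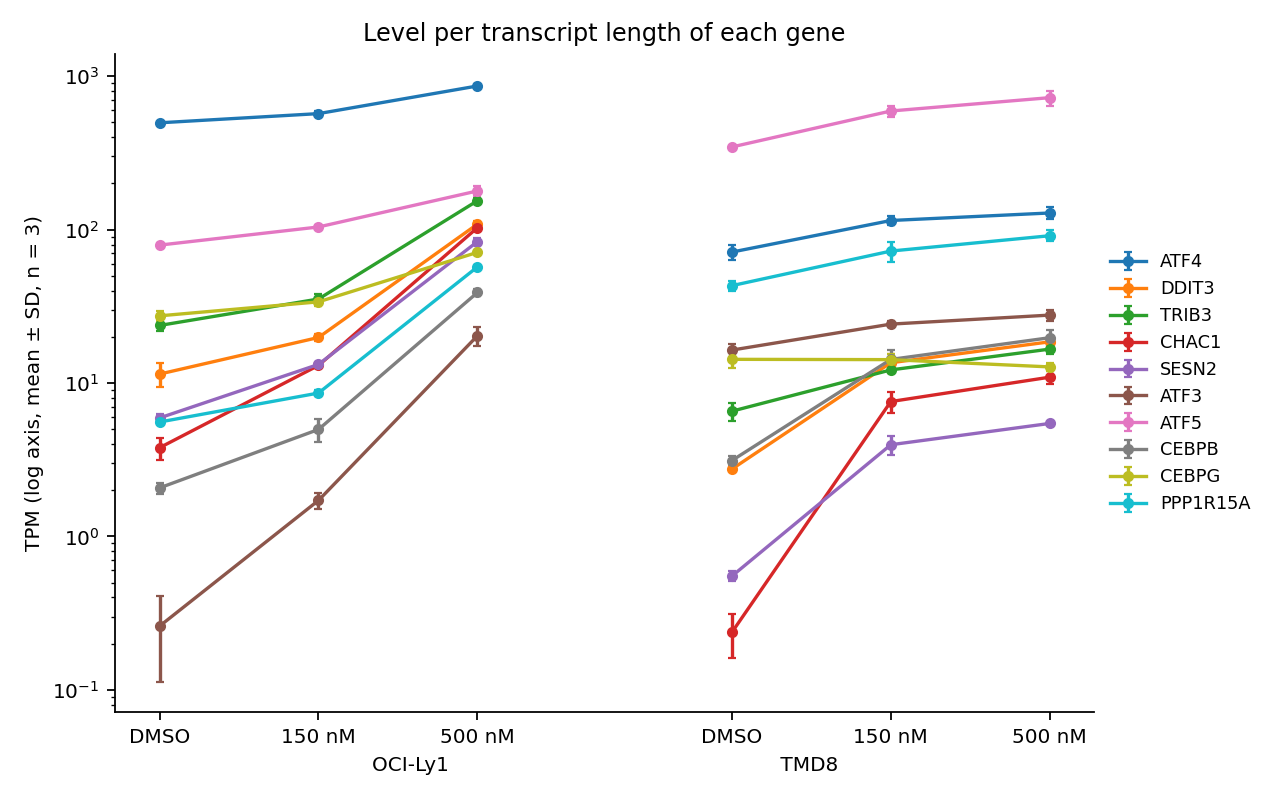
TPM (log axis, mean ± SD of 3 libraries) of each gene by group, OCI-Ly1 on the left and TMD8 on the right. ATF4 leads in OCI-Ly1 and ATF5 in TMD8 at every dose, while CHAC1 and SESN2 start lowest in TMD8 and ATF3 in OCI-Ly1.

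The promoters of the 10 genes were read for elements known to bind ATF4 partners: TGATGNAA (reverse complement TTNCATCA), the C/EBP-ATF element, and TGACGTCA, the cyclic AMP response element, on both strands. RefSeq (GRCh38.p14) gave 19 start-site windows for them, each from 250 bases before to 50 after the start site. The first element stood in 1 window each of ATF3, CHAC1 and CEBPG, beside 3.62% of all 35116 windows, and the second in 1 window of PPP1R15A, beside 1.85%. The stretches that hold them are shown because these genes include the largest rise in each line (ATF3 and CHAC1), the one gene that hardly moved in TMD8 (CEBPG) and PPP1R15A, far apart between the lines. All are on the plus strand, written 5′ to 3′, with the element in capitals; the submitters' processing notes name hg19, and no coordinate below comes from the tables.
ATF3, chr1:212565157-212565333, element 191 bases before the start site, outside annotated exons: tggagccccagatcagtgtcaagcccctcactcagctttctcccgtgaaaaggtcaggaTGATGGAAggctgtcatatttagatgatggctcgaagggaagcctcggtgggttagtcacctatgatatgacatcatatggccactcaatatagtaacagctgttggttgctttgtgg
CHAC1, chr15:40953251-40953280, element 209 bases before this start site, inside an exon of a longer GENCODE v29 transcript: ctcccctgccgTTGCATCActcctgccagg
CEBPG, chr19:33373896-33374112, element 42 bases before this start site, outside annotated exons: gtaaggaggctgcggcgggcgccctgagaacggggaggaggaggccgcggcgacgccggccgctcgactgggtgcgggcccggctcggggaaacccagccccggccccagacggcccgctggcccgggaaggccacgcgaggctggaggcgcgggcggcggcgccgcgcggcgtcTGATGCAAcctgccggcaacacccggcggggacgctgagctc
PPP1R15A, chr19:48872171-48872391, element 58 bases before the start site, outside annotated exons: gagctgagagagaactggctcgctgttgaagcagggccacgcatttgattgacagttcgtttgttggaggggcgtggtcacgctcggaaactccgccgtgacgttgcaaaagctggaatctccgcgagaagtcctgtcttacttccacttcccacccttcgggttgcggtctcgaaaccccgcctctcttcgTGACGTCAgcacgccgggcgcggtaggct
All 10 genes rose at 500 nM, so a rise cannot set genes with a match apart from those without. ATF3, CHAC1 and CEBPG, which hold the same element, moved by 6.13, 4.62 and 1.25 in OCI-Ly1 on the log2 scale at 500 nM. In TMD8 they moved by 1.12, 5.86 and 0.22. The part of the elements in these changes was not tested.

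Genes upstream of ATF4 went both ways. Of 14 kinases and regulators of eIF2 phosphorylation, 3 were higher and 6 lower at 500 nM in OCI-Ly1, while TMD8 had 3 higher and 7 lower, with median log2 fold changes of -0.05 and -0.13. For these and the lists that follow, the shares over all genes tested were 27.7% higher and 25.9% lower in OCI-Ly1, and 29.9% and 30.7% in TMD8. These splits followed the scaling: on log2(TPM + 1) they were 4 to 1 and 1 to 9, and on library size alone 4 to 5 and 5 to 5. All genes tested split 5739 to 2240 in OCI-Ly1 and 1751 to 7581 in TMD8 on log2(TPM + 1). On library size alone they split 5472 to 3080 and 5679 to 3883. Splits of the lists that follow on those scales are to be read beside these counts. Among the 4 eIF2 kinases, EIF2AK3 (PERK, the sensor of the endoplasmic reticulum) was higher in both lines, by 0.30 ± 0.06 in OCI-Ly1 (edgeR adjusted p = 0.000821) and 0.81 ± 0.08 in TMD8 (edgeR adjusted p = 6.86e-08). EIF2AK4 (GCN2, the sensor of uncharged tRNA) was lower in both, -0.58 ± 0.05 and -0.18 ± 0.06 (edgeR adjusted p = 1.67e-08 and 0.0138). EIF2AK2 (PKR, the sensor of double-stranded RNA) was also lower, -0.36 ± 0.07 and -0.40 ± 0.05 (edgeR adjusted p = 0.000331 and 1.58e-06). EIF2AK1 (HRI) did not pass in OCI-Ly1 (0.11 ± 0.05, edgeR adjusted p = 0.0632) and was lower in TMD8 (-0.37 ± 0.05, edgeR adjusted p = 9.08e-06). PPP1R15B, the constitutive partner of protein phosphatase 1, was higher in OCI-Ly1 (0.35 ± 0.05, edgeR adjusted p = 3.33e-05) and did not pass in TMD8 (0.11 ± 0.05, edgeR adjusted p = 0.0516), while its inducible counterpart PPP1R15A rose by 3.23 and 1.46. The phosphatase subunits PPP1CA and PPP1CC were lower in both lines, most in TMD8 (-0.62 and -0.58), and OMA1, a mitochondrial protease upstream of HRI, was lower in OCI-Ly1 (-0.35) and higher in TMD8 (0.20).

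Of 8 subunits of eIF2 and its exchange factor eIF2B, 2 were higher and 3 lower in OCI-Ly1, and 6 were lower and none higher in TMD8. The OCI-Ly1 split was 2 to 0 on log2(TPM + 1) and 1 to 6 on its centred form. Over all genes it was 5739 to 2240 and 2902 to 6079. EIF2S1, the subunit that is phosphorylated, was lower in both lines (-0.30 ± 0.06 and -0.90 ± 0.06, edgeR adjusted p = 0.000197 and 2.88e-10). EIF2S2 was higher in OCI-Ly1 (0.34) and lower in TMD8 (-0.32). EIF2B2 was lower in both (-0.25 and -0.58), and EIF2B3 and EIF2B1 had larger falls in TMD8 (-0.67 and -0.60) than their OCI-Ly1 values of -0.14 and -0.06, of which the last did not pass the test.

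Downstream genes moved with the 10. Of 27 further targets of ATF4 or CHOP, 25 were tested within the lines; 24 were higher and none lower at 500 nM in OCI-Ly1, while TMD8 had 20 higher and 2 lower, with medians of 1.37 and 1.01. On log2(TPM + 1) the TMD8 split was 16 to 5, beside 1751 to 7581 over all genes. CTH, which makes cysteine from cystathionine, rose by 3.08 ± 0.08 and 3.36 ± 0.14 (edgeR adjusted p = 3.73e-15 and 2.02e-12). SLC6A9, a glycine transporter, rose by 4.09 ± 0.14 and 4.09 ± 0.23 (edgeR adjusted p = 9.27e-14 and 9.43e-11). GDF15, a secreted stress factor, had 1, 2 and 0 counts with DMSO in OCI-Ly1 and 70, 46 and 68 with 500 nM; TMD8 had 0, 1 and 1 counts with DMSO and 169, 154 and 107 with 500 nM. No fold is given for it against so few counts. JDP2, a bZIP repressor, was higher in OCI-Ly1 (0.34) and lower in TMD8 (-0.24).

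The unfolded protein response outside the PERK arm was mixed. Of 16 genes, 8 were higher and 7 lower at 500 nM in OCI-Ly1, while TMD8 had 7 higher and 6 lower, with medians of 0.21 and 0.10. The TMD8 split was 8 to 4 on library size alone and 6 to 8 on log2(TPM + 1). The genes named next had the largest called changes in a line, and none of the lower genes is among them. ERN1, which encodes the sensor IRE1, rose by 3.22 ± 0.12 in OCI-Ly1 and 2.21 ± 0.12 in TMD8 (edgeR adjusted p = 1.56e-13 and 3.10e-11). XBP1, the transcription factor spliced by IRE1, rose by 1.70 and 0.70, and SEL1L, of the degradation machinery, by 1.45 and 0.32. DNAJB9 and EDEM1, which act in chaperoning and degradation in the endoplasmic reticulum, rose more in TMD8 (1.79 and 1.29) than their OCI-Ly1 values of 1.09 and 0.64; these line differences are given side by side and not as a test.

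SESN2 is also a p53 target, and the p53 list moved in both lines. Of 12 targets, 8 were higher and 3 lower in OCI-Ly1 at 500 nM, and all 12 were higher in TMD8, with medians of 0.32 and 1.37. The cell cycle inhibitor CDKN1A rose by 3.05 and 1.48, the death receptor FAS by 2.76 and 2.20, and BBC3, the cell death gene also called PUMA, by 2.57 and 2.21. PHLDA3 rose by 2.53 and 3.53, and SESN1, the paralog of SESN2, by 0.92 and 2.36. GADD45A rose only by the TMD8 test (3.11), with 0.18 in OCI-Ly1 (edgeR adjusted p = 0.0778). BTG2, RRM2B and TP53I3 were lower in OCI-Ly1 (-0.44, -0.60 and -0.65) and higher in TMD8 (0.46, 0.92 and 1.14). The part of p53 in the SESN2 values was not tested.

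Relatives of the 10 genes did not move as one. Of 12 paralogs, 10 were tested within each line; 6 were higher and 3 lower at 500 nM in OCI-Ly1, while TMD8 had 3 higher and 4 lower, where library size alone gave 5 to 3. CHAC2, the constitutive relative of CHAC1, was lower in both lines (-0.72 ± 0.10 and -1.02 ± 0.10, edgeR adjusted p = 7.89e-06 and 6.27e-08). CEBPD rose by 2.0 ± 0.39 in OCI-Ly1 (edgeR adjusted p = 0.000365), and CEBPA by 1.91 ± 0.11 in TMD8 (edgeR adjusted p = 1.44e-10), where OCI-Ly1 had at most 1 count per library with DMSO. SESN3 was lower in OCI-Ly1 (-0.30) and higher in TMD8 (1.46). Of 24 other bZIP factors, 23 were tested within each line; 17 were higher and 2 lower in OCI-Ly1, while TMD8 had 16 higher and 4 lower, where log2(TPM + 1) gave 10 to 7. BATF3 (4.52), FOS (3.58) and JUN (2.87) led in OCI-Ly1, and FOSB (6.01), FOS (4.34) and FOSL1 (1.98) in TMD8. BATF was higher in OCI-Ly1 (0.96) and lower in TMD8 (-0.89), and MAFF lower (-0.45) and higher (0.37).

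**Figure D5:**
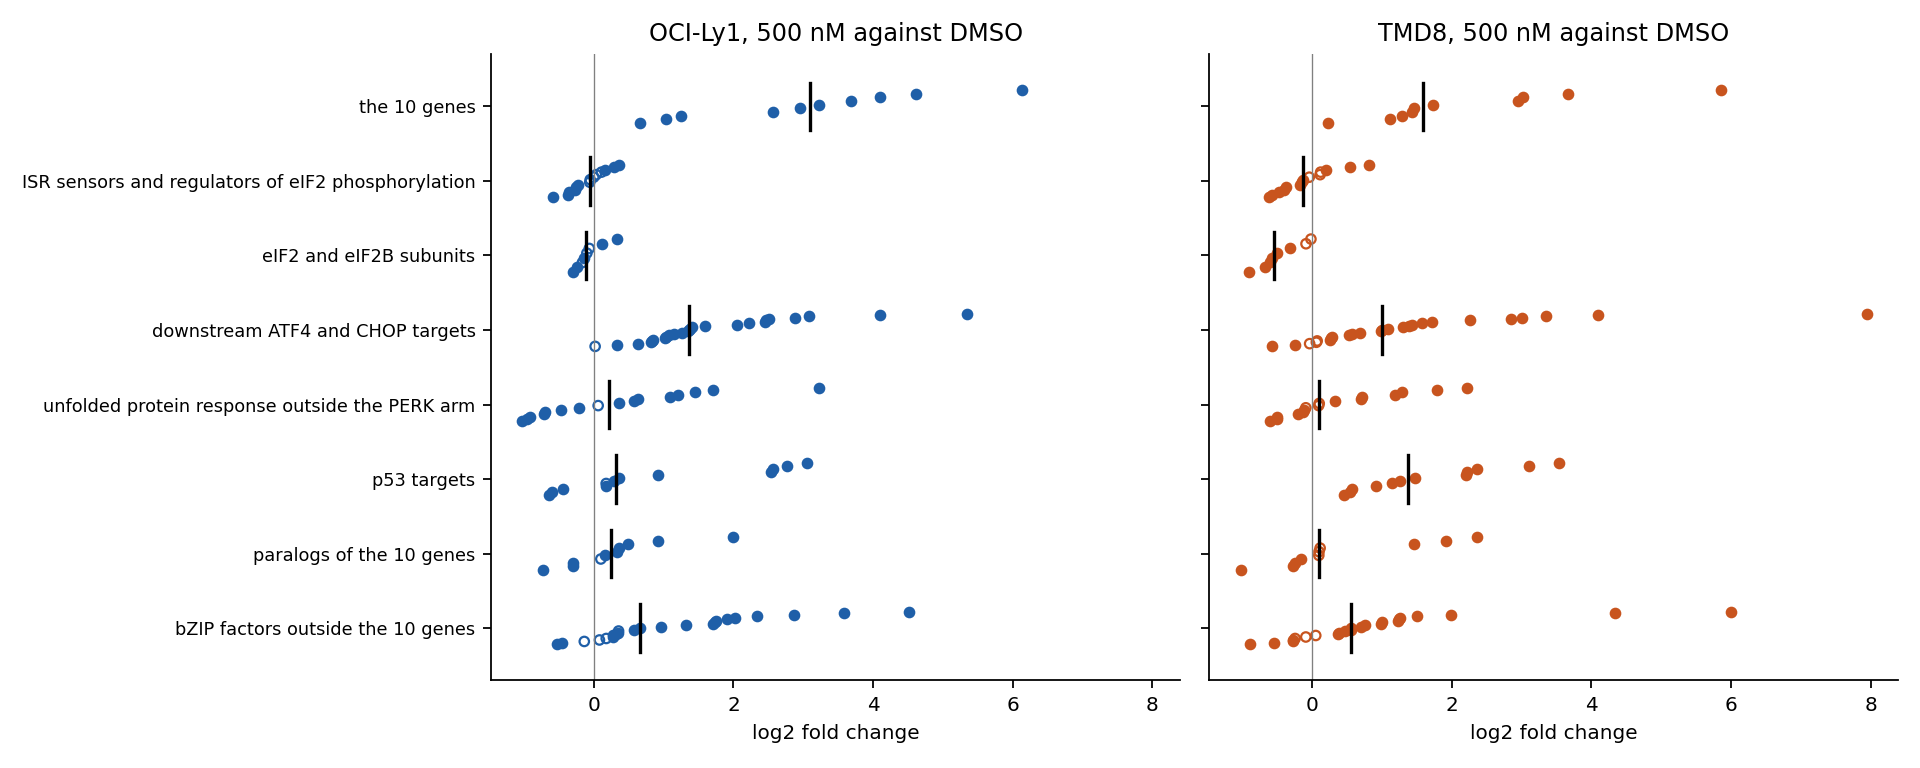
Log2 fold change at 500 nM against DMSO (x axis) of every tested gene of each list, OCI-Ly1 on the left and TMD8 on the right; filled points passed edgeR's test, open points did not, and black bars are medians. The 10 genes and the downstream targets lie mostly to the right of 0, while regulators and subunits of eIF2 lie around or below it; the rightmost target point, GDF15, rests on 3 or fewer DMSO counts per line.

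The genes whose pattern was most like that of the 10 were sought among 10280 others, by Pearson correlation of log2 CPM with the mean pattern of the 10 over the 9 libraries of each line, taking the smaller of both lines. They were CTH (0.997), SNTB1 (0.995), HERPUD1 (0.994), RIMS3 (0.994) and PSAT1 (0.994). The libraries share their groups, so these values describe the order of doses more than anything else. At 500 nM their log2 fold changes ran from 1.21 (HERPUD1) to 3.08 (CTH) in OCI-Ly1 and from 1.01 (PSAT1) to 3.36 (CTH) in TMD8. Of the 10 genes themselves, 9 correlated with the mean pattern at 0.988 or more in both lines, and CEBPG at 0.992 in OCI-Ly1 and 0.867 in TMD8. That mean includes each of these genes, so high values are partly built in and are no test of their likeness.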

How the data were processed

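The authors deposited, for each line, estimated counts per gene symbol and TPM. The submitters' processing notes name kallisto 0.46.0, R 4.3.1, DESeq2 1.40.2 and hg19, in roles not given in the sources used here. Per the labels' protocols, ribosomal RNA was depleted and reads were paired, of 101 cycles. Rounded counts were tested with edgeR 4.0.16 (TMM, filterByExpr by group) over the 9 libraries of a line, or over all 18 for comparisons between lines; SE came from the log2 fold change and the F statistic. CPM were scaled by TMM. Alternatives were DESeq2 1.42.0, library size alone, no filter, a replicate block, limma 3.58.1 on log2 TPM with a pseudocount of 1 (also centred on the median gene) or 0.1, and each library left out. Genes named from lists are the 3 with the largest called changes per line at 500 nM, those called in opposite directions, the eIF2 kinases and PPP1R15B. Of 108 listed genes, STC2 and CEBPE were not tested, and NUPR1 and MAF only over both lines. Within each line a paralog besides CEBPE was also not tested, so that 10 of 12 paralogs were tested there and 11 over both lines. Members and lists were chosen with earlier results of these data known. On simulated counts for OCI-Ly1 at 500 nM over 15638 genes, 83% of changes of 1 and 98% of changes of 2 (log2) were recovered. For the line difference at 500 nM the shares were 72.4% and 93%. The simulation changed 200 genes, as many up as down, while 8387 were called in OCI-Ly1 at 500 nM. It therefore cannot test whether the scaling holds when so many genes change. For the line difference, each gene was simulated at the same starting level in both lines. In the data, 37.8% of genes were called higher and 39.0% lower in OCI-Ly1 than in TMD8 with DMSO. The simulated shares thus do not cover genes near 0 in only 1 line. No pair of libraries agreed within sampling noise.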

Additional observations from a re-analysis of the deposited data

Results flagged for a closer look

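The change with JIB-04 differed between the lines, by edgeR's test of the difference (OCI-Ly1 minus TMD8, log2), for 9 of the 10 genes at 150 nM. The values were -3.38 for CHAC1, -1.86 for SESN2, -1.63 for DDIT3, -1.09 for CEBPB, -0.72 for ATF4, -0.56 for ATF5, -0.51 for TRIB3, -0.30 for PPP1R15A and 1.97 for ATF3. Of all 16604 genes tested at this dose, 15.0% were called with a difference above 0 and 8.33% below 0. At 500 nM the change differed for 8 of the 10. The values were 5.04 for ATF3, 1.80 for PPP1R15A, 1.11 for CEBPB, 1.06 for CEBPG, 0.87 for TRIB3, -0.37 for ATF5, -0.60 for ATF4 and -1.22 for CHAC1. Here 28.2% of all genes tested were called above 0 and 18.1% below 0, so that a line difference was common among all genes. On counts, CEBPB, TRIB3 and PPP1R15A thus changed less in OCI-Ly1 at the lower dose and more at the higher one. At the lower dose TRIB3 and PPP1R15A missed the threshold on log2(TPM + 1) (limma adjusted p = 0.133 and 0.308), and PPP1R15A also with DESeq2 (adjusted p = 0.0597) and without any 1 of 10 of the 12 libraries. Line and growth medium cannot be told apart in these values.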

How the results depend on the processing

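The 10 genes kept all 10 calls at 500 nM in OCI-Ly1 under every alternative; in TMD8, CEBPG lost its call on the 3 TPM scales. Of the alternative values for single genes, 1501 kept direction and side of the threshold, 56 lost the call, 29 gained it and 24 changed sign. The sign changes were these. CEBPG in TMD8 on log2(TPM + 1) and log2(TPM + 0.1) was -0.0034 and -0.0034 at 150 nM, -0.149 and -0.158 at 500 nM, and -0.145 and -0.155 between doses. CEBPG between lines with DMSO was 0.123 on library size alone, 0.899 and 0.941 on these TPM scales, 0.175 centred, and -0.0691 to 0.0023 with single libraries left out. The line difference at 500 nM was 1.18 and 0.729 for CHAC1 on log2(TPM + 1) and its centred form. For ATF5 it was 0.102 and 0.109 on the 2 uncentred TPM scales. With single libraries left out it was -0.109 to 0.145 for DDIT3 and -0.0384 to 0.130 for SESN2. On log2(TPM + 1) these 2 genes were 0.769 and 1.55, called larger in OCI-Ly1, beside a median of 0.383 over all genes. The difference of dose steps for CEBPG in TMD8 was -0.0142 to 0.198 with single libraries left out, below 0 without 150 nM replicate 1. That comparison called 4 genes in TMD8 on each uncentred TPM scale, in place of 7. The cause of these shifts was not tested; the median over all genes at 500 nM in TMD8 was 0.041 on counts, -0.219 on log2(TPM + 1) and 0.134 on library size alone. Over all genes, the 139 calls in OCI-Ly1 at 150 nM became 240 with DESeq2, 323 without a filter and 50 to 74 on TPM scales, and 65 to 339 with 1 library left out, while 7 to 10 of the 10 genes were called; the differences of dose steps called 2254 genes in OCI-Ly1 (1211 to 2716 under alternatives) and 430 in TMD8 (71 to 724). ATF4 and CEBPG passed in OCI-Ly1 at 150 nM with DESeq2, on library size alone and without the filter. In OCI-Ly1, correlations of deviations were -0.0668 to 0.259 between libraries of the same replicate number, and -0.287 to 0.0709 between different numbers. For TMD8 they were -0.0696 to 0.180 (same) and -0.222 to 0.160 (different). Between DMSO and 150 nM in OCI-Ly1, replicates 1 and 3 each had 0.259 and replicate 2 had 0.0367. Different numbers gave at most 0.0407 there. Same-number pairs with a 500 nM library gave at most 0.0229 in OCI-Ly1. Whether replicate numbers mark paired cultures was not tested. With the replicate block 9 of the 10 genes were called in OCI-Ly1 at 150 nM. For the difference of dose steps it called 9 in place of 8 in OCI-Ly1 and 6 in place of 7 in TMD8. The other comparisons had as many calls as without it. Among all genes, the share of calls that were higher at 500 nM moved from 51.6% to between 32.3% and 71.9% in OCI-Ly1 and from 49.3% to between 18.8% and 59.4% in TMD8 with the scaling.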
